A study of Danio rerio with 4 samples.

Results

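The genes described here encode the proteins of the mitochondrial ribosome. They were taken from the deposited gene table by symbol, as rows whose name begins with mrpl or mrps followed by a digit. This gave 74 of the 18105 genes in the table, 46 named mrpl and 28 named mrps, all annotated as protein coding and spread over 22 chromosomes. The genes were measured by RNA-seq in cardiomyocytes sorted by flow cytometry from the ventricle of adult zebrafish (Danio rerio). One group was positive for tp1:EGFP and myl7:DsRed2-NLS (tp1:EGFP+ below, 2000 sorted cells per the series' design text), and the other was positive for myl7:EGFP (myl7:EGFP+ below, 7000 sorted cells), with 2 libraries in each. Transgenes driven by tp1 report Notch signalling, and the myl7 promoter is active in cardiomyocytes, so the comparison sets cardiomyocytes with reporter activity against cardiomyocytes in general. The number of sorted cells differs along with the reporter, so the parts of input and reporter activity cannot be told apart. Both groups were selected through the myl7 promoter, and the labels name no other allele or treatment, no number of fish per sort and no shared pool or day.

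Mitochondria translate the few proteins encoded in their own DNA, all of them core parts of the respiratory chain and the ATP synthase, on a ribosome of their own. Its RNAs come from mitochondrial DNA, whereas all its proteins are encoded in the nucleus, made in the cytosol and imported. The large subunit carries the catalytic centre that joins amino acids and the small subunit reads the messenger RNA. Many of these proteins descend from bacterial ribosomal proteins and others were added in the mitochondrial lineage. Heart muscle depends on oxidative metabolism, and in humans inherited defects of several of these proteins, among them MRPL3 and MRPL44, cause cardiomyopathy.

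Of the 74 genes, 48 encode proteins of the large subunit, 25 encode proteins of the small subunit, and 1, mrps36, carries the name but is listed as kgd4, a component of the 2-oxoglutarate dehydrogenase complex, in the reference name table. The large subunit count includes mrps18a and mrps30, whose proteins are known from the large subunit in mammals. Roles in what follows are those known from bacterial or mammalian ribosomes. The symbols mrpl49, mrpl50, mrpl55 and mrps12 were not analysed here.

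The values are the authors' normalized read counts, rounded to whole numbers and not corrected for gene length, so levels are compared between libraries and not between genes. They summed to between 1552636 and 2130733 per library. In replicate 2 of each group the values were rounded multiples of a fixed step, which put 1 read at 2.98 (tp1:EGFP+) and 3.109 (myl7:EGFP+) and the depth at about 684970 and 685344 reads. In replicate 1 of both groups every whole number from 1 to 30 occurred, so 1 read was worth at most 1 and those libraries were deeper. Genes above 0 numbered 12558 and 11516 in tp1:EGFP+ replicates 1 and 2, and 14281 and 12417 in myl7:EGFP+. The 9 rows of cardiomyocyte markers were present in every library, with sums of 27410 and 53972 in tp1:EGFP+ and 24234 and 48760 in myl7:EGFP+. Of them 0 passed the test by limma, and 0 at an unadjusted p under 0.05, with a median SE of 1.27 on the log2 scale. Of 6 tested rows of mural cell markers 6 were higher in tp1:EGFP+ and 0 lower, with summed values of 2450 and 4311 in tp1:EGFP+ against 345 and 282 in myl7:EGFP+, where myh11a and pdgfrb were at 0. Of 6 endothelial markers 1 was higher and 5 were lower, with sums of 66 and 63 against 607 and 370. The 1 higher gene had a log2 difference of 4.64 and the lowest of the list was -5.99, so the sums mix both directions. At 0 in tp1:EGFP+ were tie1, erg, fli1a and plvapb. Erythroid rows numbered 5 higher of 6 (156 and 340 against 27 and 22), epicardial and fibroblast rows 3 higher of 6 (223 and 213 against 138 and 136), and the 1 tested leukocyte gene was lower (list sums 1 and 3 against 27 and 46, with ptprc, mpeg1.1 and coro1a at 0 in every library). Over all tested genes 16.1% passed as higher and 18% as lower. The part of these cell types in the results below was not tested.

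All 74 genes reached the limit for testing, a mean value of 10 across libraries, and none was at 0 in any library. Few passed the test between the groups. By limma on log2(value + 1), with Benjamini-Hochberg adjustment over all 9921 tested genes and a threshold of 0.05, 8 of 74 passed (10.8%), 1 higher and 7 lower in tp1:EGFP+. Over all tested genes 34.1% passed, 16.1% higher and 18% lower. The split was 2 higher and 6 lower with scaling by a trimmed mean of M values, and 0 and 3 with scaling to a common total. In these settings 35.1% and 26.5% of all tested genes passed. The log2 differences (tp1:EGFP+ minus myl7:EGFP+) of the 74 genes lay between -2.57 and 1.68, with a median of -0.16 and quartiles of -0.66 and 0.36. Over all tested genes the median was 0.01 and the quartiles were -1.04 and 0.91. Differences under 1 in size made up 83.8% of the 74 genes and 50.8% of all tested genes. The SE of the difference had a median of 0.35 in the 74 genes and 0.45 in all tested genes. In bulk samples, fewer cells of a type and less RNA per cell cannot be told apart.

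**Figure D1:**
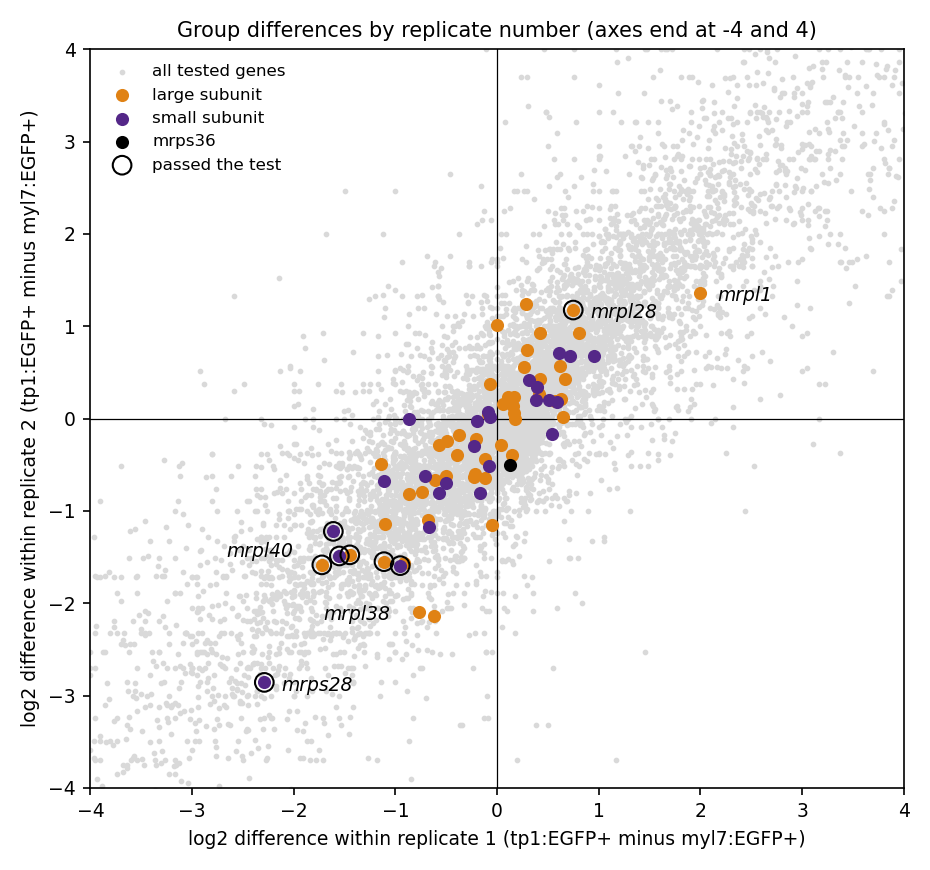
Log2 difference of tp1:EGFP+ minus myl7:EGFP+ within replicate 1 (x axis) and within replicate 2 (y axis), on the log2(value + 1) scale, for all tested genes (grey) and the 74 genes by subunit, with circles around the 8 that passed the test. The coloured points lie close to the centre of the grey cloud, mrps28 is the lowest at -2.29 and -2.86, and mrpl1, at 2.00 and 1.36, did not pass.

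Within replicate 1 and within replicate 2 the median difference of the 74 genes was -0.09 and -0.20. Both differences were positive for 27 genes (36.5%, against 42.9% of all tested genes) and both were negative for 36 (48.6%, against 41.9%). The remaining 11 had opposite signs or an exact 0 in 1 of them, and the largest of their within-replicate differences was 1.01 in size. The 4 values did not overlap between the groups, with tp1:EGFP+ above, for 15 genes (20.3%, against 34.1% of all tested genes), and with tp1:EGFP+ below for 25 (33.8%, against 34.8%). Over all tested genes the groups did not overlap for 68.9%. Differences of at least 2-fold within both replicates were found for 1 gene with tp1:EGFP+ higher, against 19.6% of all tested genes, and for 7 with tp1:EGFP+ lower, against 21.5%. With the replicate number as a block, 32 of the 74 passed (43.2%), against 57.7% of all tested genes. Across the 74 genes the differences in the 2 replicate numbers had a Pearson's r of 0.84, and across all tested genes of 0.92, given as a description since genes of 1 library share its depth and preparation.

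Among large subunit genes, 1 rose and 3 fell of 48 (8.3% called, against 34.1% of all tested genes). The gene that rose was mrpl28 (ENSDARG00000057805, chromosome 15, 17128282 to 17138640, GRCz11), which encodes a homologue of bacterial L28. It had 357 and 471 normalized counts in tp1:EGFP+ replicates 1 and 2, against 212 and 208 in myl7:EGFP+. Both tp1:EGFP+ libraries lay above both myl7:EGFP+ libraries, which were nearly equal. The means were 414 ± 80.6 and 210 ± 2.83 (SD, n = 2 each), a 1.97-fold ratio, and the log2 difference was 0.96 ± 0.26 (SE; limma adjusted p = 0.0441).

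The gene mrpl24 (ENSDARG00000019222, chromosome 19, 7495791 to 7506134) encodes a homologue of bacterial L24, a protein that binds early in the assembly of the large subunit. It had 47 and 45 in tp1:EGFP+, against 130 and 127 in myl7:EGFP+. The libraries of each group were almost alike and the groups stood well apart. Its log2 difference was -1.46 ± 0.27 (SE; limma adjusted p = 0.0159), the smallest adjusted p among the 74 genes in this fit. For mrpl40 (ENSDARG00000043554, chromosome 8, 2530065 to 2535826), a mitochondria-specific protein, the values were 32 and 45 in tp1:EGFP+, against 108 and 137 in myl7:EGFP+. Here too the groups did not overlap, and the log2 difference was -1.65 ± 0.34 (SE; limma adjusted p = 0.0212). The third gene that fell was mrpl39 (ENSDARG00000041570, chromosome 1, 532766 to 591331), also mitochondria-specific, with 36 and 27 in tp1:EGFP+ and 79 and 81 in myl7:EGFP+. Its groups were separate, with a log2 difference of -1.33 ± 0.35 (SE; limma adjusted p = 0.0413). Its span overlaps that of CU571081.1 on the opposite strand over 5986 bases, a gene with 6 and 0 in tp1:EGFP+ and 0 and 0 in myl7:EGFP+, and whether the authors' counting used strand is not given in the sources used here.

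Among small subunit genes, 0 rose and 4 fell of 25 (16% called, against 34.1% of all tested genes). At an unadjusted p under 0.05, 8 of the 25 passed by limma in either direction, against 46.1% of all tested genes. The lowest difference of the 74 genes was that of mrps28 (ENSDARG00000041538, chromosome 22, 26290209 to 26290863), which encodes a small subunit protein related to bacterial S1. It had 8 and 3 in tp1:EGFP+ and 43 and 28 in myl7:EGFP+, so the groups did not overlap. The value of 3 corresponds to 1 read in tp1:EGFP+ replicate 2 (95% Poisson interval 0.0253 to 5.57 reads) and the value of 28 to 9 reads in myl7:EGFP+ replicate 2 (4.12 to 17.1 reads), intervals that cover counting error only. The log2 difference was -2.57 ± 0.61 (SE; limma adjusted p = 0.0312).

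The gene mrps25 (ENSDARG00000041306, chromosome 8, 53143211 to 53152093) encodes a mitochondria-specific small subunit protein and had 101 and 66 in tp1:EGFP+, against 298 and 187 in myl7:EGFP+. Replicate 1 was the higher library in each group, and both tp1:EGFP+ libraries were below both others. Its log2 difference was -1.52 ± 0.37 (SE; limma adjusted p = 0.0332). It overlaps rbsn on the opposite strand over 1122 bases, which had 0 and 0 in tp1:EGFP+ and 13 and 9 in myl7:EGFP+. For mrps23 (ENSDARG00000033973, chromosome 15, 30350061 to 30354786), likewise mitochondria-specific, the values were 55 and 98 in tp1:EGFP+ and 170 and 230 in myl7:EGFP+. Here replicate 2 was the higher library in each group, and the log2 difference was -1.42 ± 0.38 (SE; limma adjusted p = 0.0433). The gene mrps2 (ENSDARG00000103198, chromosome 21, 7121942 to 7128064) encodes a homologue of bacterial S2 and had 92 and 57 in tp1:EGFP+, against 179 and 174 in myl7:EGFP+. The myl7:EGFP+ libraries were nearly equal and above both others, with a log2 difference of -1.27 ± 0.32 (SE; limma adjusted p = 0.0376).

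All 8 calls were lost whichever of the 4 libraries was left out, with limma adjusted p between 0.0794 and 0.293. The log2 differences kept their sign in these 4 fits, as they must when the groups do not overlap, which holds for all 8. They lay between -3.16 and -1.99 for mrps28, between -1.49 and -1.43 for mrpl24 and between 0.76 and 1.16 for mrpl28. Leaving out a library leaves 1 in a group, which is then assumed to vary like the other group, and the calls over all genes dropped as well, to 627 without tp1:EGFP+ replicate 1, 401 without tp1:EGFP+ replicate 2, 423 without myl7:EGFP+ replicate 1 and 434 without myl7:EGFP+ replicate 2.

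**Figure D2:**
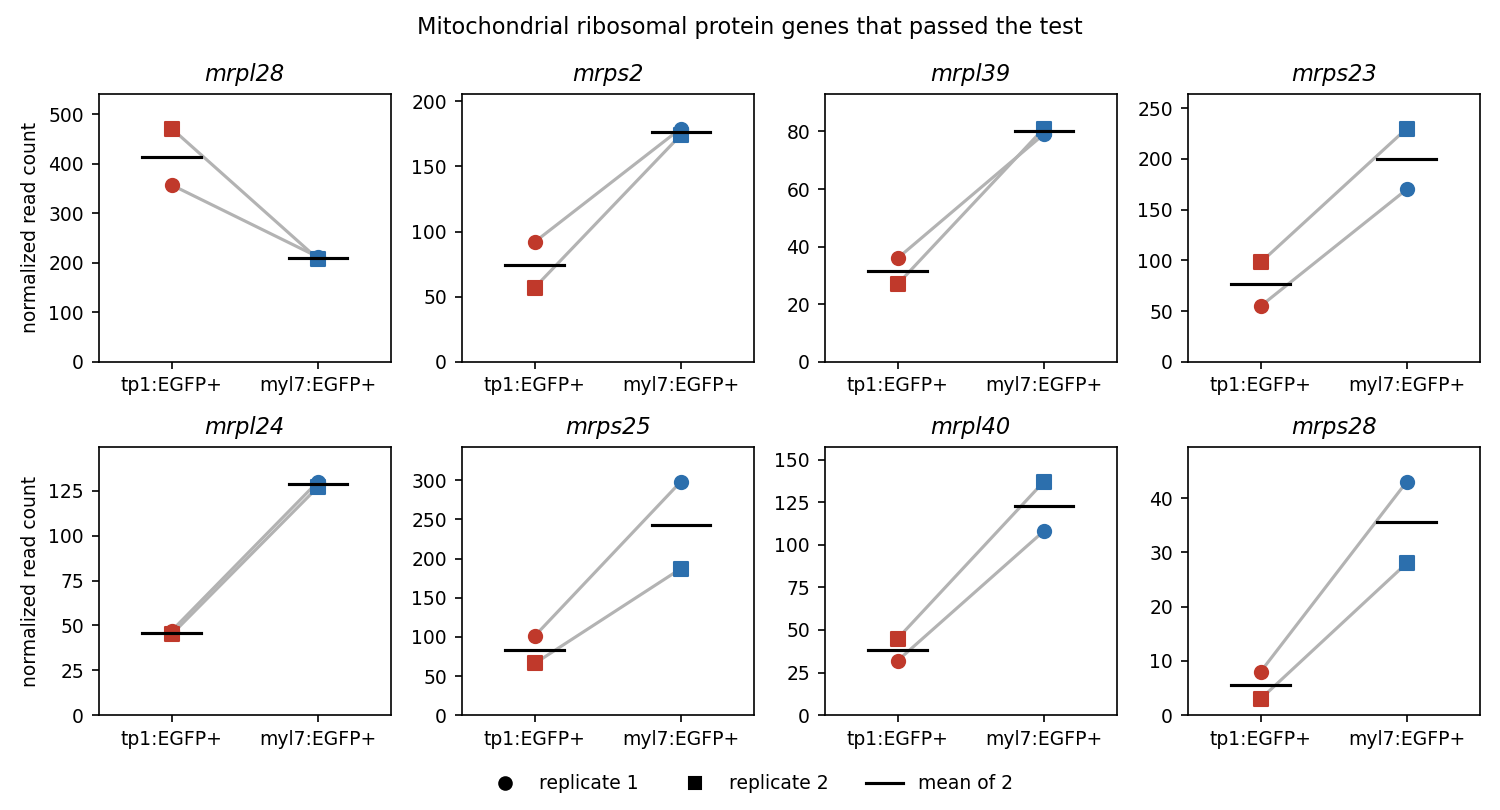
Normalized read counts (y axis, from 0) of the 8 genes that passed the test, in tp1:EGFP+ (red) and myl7:EGFP+ (blue) libraries, with a black line at the mean of 2 libraries and grey lines joining the same replicate number. In mrpl28 both tp1:EGFP+ values (357 and 471) lie above the myl7:EGFP+ values, and in the other 7 genes both lie below.

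Several genes had differences of similar size and did not pass. The largest was mrpl1, whose bacterial homologue forms the mobile L1 stalk near the exit site for transfer RNA. It had 39 and 89 in tp1:EGFP+ and 9 and 34 in myl7:EGFP+, so the groups were separate but the libraries within each differed more than 2-fold, with a log2 difference of 1.68 ± 0.79 (SE; limma adjusted p = 0.165). The mitochondria-specific large subunit gene mrpl38 had 177 and 86 in tp1:EGFP+ and 302 and 370 in myl7:EGFP+. Its log2 differences were -0.77 within replicate 1 and -2.09 within replicate 2, and it missed the threshold (limma adjusted p = 0.0516). It overlaps trim65 (0 and 0 against 1 and 0) on the opposite strand over 468 bases. The gene mrpl36, a homologue of bacterial L36, had 241 and 203 against 137 and 106 (limma adjusted p = 0.0604). The gene mrps5, whose bacterial homologue is known for its part in decoding accuracy, had 94 and 95 in tp1:EGFP+ and 48 and 59 in myl7:EGFP+ (limma adjusted p = 0.0923). The gene mrpl4, whose protein lines part of the exit tunnel in bacteria, had 228 and 367 against 187 and 155 (limma adjusted p = 0.133). In these last 3 genes both tp1:EGFP+ libraries lay above both myl7:EGFP+ libraries. The span of mrpl4 overlaps that of si:dkey-23f9.4 (25 and 30 against 0 and 0) on the opposite strand over 713 bases.

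None of the other named genes passed. The stalk gene mrpl12, whose protein recruits translation factors and has been reported to bind the mitochondrial RNA polymerase in mammals, had 274 and 301 in tp1:EGFP+ and 245 and 274 in myl7:EGFP+, a log2 difference of 0.15 ± 0.23 (SE; limma adjusted p = 0.674). The gene mrpl11, whose protein sits at the base of that stalk, had 242 and 265 against 152 and 196, with a log2 difference of 0.55 ± 0.25. Its libraries were separate by group, without passing (limma adjusted p = 0.158). The span of mrpl11 overlaps pfdn6 over 277 bases and tmem265 over 7181, both on the opposite strand. The values of pfdn6 were 90 and 146 in tp1:EGFP+ and 25 and 78 in myl7:EGFP+, and those of tmem265 were 0 and 0 against 4 and 0. The gene mrpl3, whose bacterial homologue reaches towards the catalytic centre, had 138 and 140 in tp1:EGFP+ and 150 and 190 in myl7:EGFP+ (log2 -0.28 ± 0.25). The gene mrpl44, whose protein has a fold like ribonuclease III, had 101 and 77 against 169 and 134 (log2 -0.76 ± 0.29). In both genes the tp1:EGFP+ libraries were below the myl7:EGFP+ libraries, and neither passed (limma adjusted p = 0.439 and 0.102). The small subunit gene mrps22 had 96 and 122 against 110 and 124, and the small subunit gene mrps34 had 382 and 390 against 268 and 339 (limma adjusted p = 0.795 and 0.336). The homologue of bacterial L9, mrpl9, had 155 and 191 in tp1:EGFP+ and 293 and 566 in myl7:EGFP+, with separate groups. Its log2 difference was -1.24 ± 0.39 (SE; limma adjusted p = 0.0656), larger in size than that of mrpl28. It passed with scaling to a common total and with quantile normalization. It overlaps prcc (2 and 0 against 5 and 9) on the opposite strand over 7285 bases. The homologue of bacterial L18, mrpl18, had 211 and 358 in tp1:EGFP+ and 205 and 438 in myl7:EGFP+, with overlapping groups (limma adjusted p = 0.877). The gene mrps36, which is no part of the ribosome by its current name, had 290 and 328 in tp1:EGFP+ and 265 and 466 in myl7:EGFP+ (limma adjusted p = 0.726).

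The 3 mrps18 genes are related copies of bacterial S18 whose proteins hold different places in the mammalian ribosome. In the classes by origin below, mrps18a and mrps18b were counted as mitochondria-specific and mrps18c as a bacterial homologue. The large subunit copy mrps18a had 43 and 86 in tp1:EGFP+ and 96 and 121 in myl7:EGFP+, without overlap. The small subunit copy mrps18b had 94 and 101 against 110 and 124, also without overlap but closer. The copy mrps18c had 68 and 292 in tp1:EGFP+ and 97 and 476 in myl7:EGFP+, so each replicate 2 library was far above each replicate 1 library and the groups overlapped. Its span overlaps that of abraxas1 (32 and 24 against 0 and 3) on the opposite strand over 230 bases. The log2 differences were -0.81 ± 0.42, -0.26 ± 0.25 and -0.60 ± 1.01 (SE) for mrps18a, mrps18b and mrps18c, and none passed (limma adjusted p = 0.202, 0.476 and 0.694).

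Grouped by origin, the 29 large subunit genes with bacterial homologues had a median log2 difference of 0.15, and the 19 mitochondria-specific large subunit genes had one of -0.60. Within both replicates the differences of these mitochondria-specific genes were negative for 14 of 19 (73.7%) and positive for 2. Of the large subunit genes with bacterial homologues, 9 of 29 were negative and 17 (58.6%) positive in both. Over all tested genes 41.9% were negative and 42.9% positive in both. The medians in replicate 1 and replicate 2 taken alone were -0.57 and -0.64 for the mitochondria-specific genes and 0.16 in each replicate for the genes with bacterial homologues. Counts of calls were small in both classes, 0 higher and 2 lower against 1 and 1. The called shares were 10.5% and 6.9%, against 34.1% of all tested genes. In the small subunit the medians were -0.03 for 15 genes with bacterial homologues and -0.28 for 10 mitochondria-specific genes, of which 7 were lower in both replicates and 2 higher. No test was made between the classes. All 4 medians lie inside the quartiles of all tested genes, but those describe single genes and cannot gauge the median of a class.

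**Figure D3:**
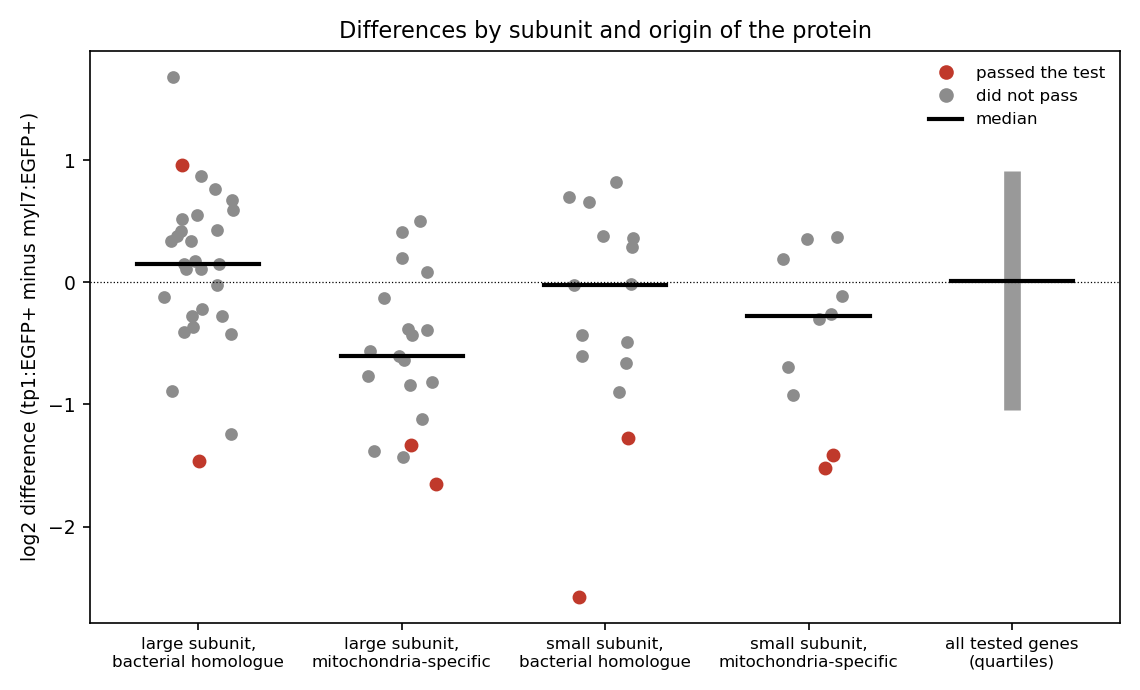
Log2 difference of tp1:EGFP+ minus myl7:EGFP+ on the log2(value + 1) scale (y axis) for each gene by subunit and origin of its protein, with red points for genes that passed the test, black lines at the class medians, and the quartiles of all tested genes as a grey bar. The mitochondria-specific large subunit genes have a median of -0.60, against 0.15 for the large subunit genes with bacterial homologues. Both lie inside the grey bar, which shows the spread of single genes.

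The same values were also taken as a ratio within each library, which does not depend on how libraries are scaled to one another. As the class medians come from these values too, the ratio is no separate support for them. The summed values of the mitochondria-specific large subunit genes over those with bacterial homologues were 0.391 and 0.381 in tp1:EGFP+ and 0.534 and 0.556 in myl7:EGFP+. The libraries of a group lay close together and the groups did not overlap. No such ratio was made for other sets of genes, and for single genes the groups did not overlap for 68.9% of all tested. In the small subunit the same ratio was 0.989 and 0.777 in tp1:EGFP+ and 1.11 and 0.942 in myl7:EGFP+, so the groups overlapped, although it was lower in tp1:EGFP+ within each replicate number. The ratio of large to small subunit sums was 2.29 and 2.37 in tp1:EGFP+ and 2.06 and 2.15 in myl7:EGFP+, a slight separation. All 74 genes together made up 0.603% and 0.611% of the values in tp1:EGFP+ and 0.682% and 0.671% in myl7:EGFP+. The sums weight genes by their level and, with no length correction, by their length.

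**Figure D4:**
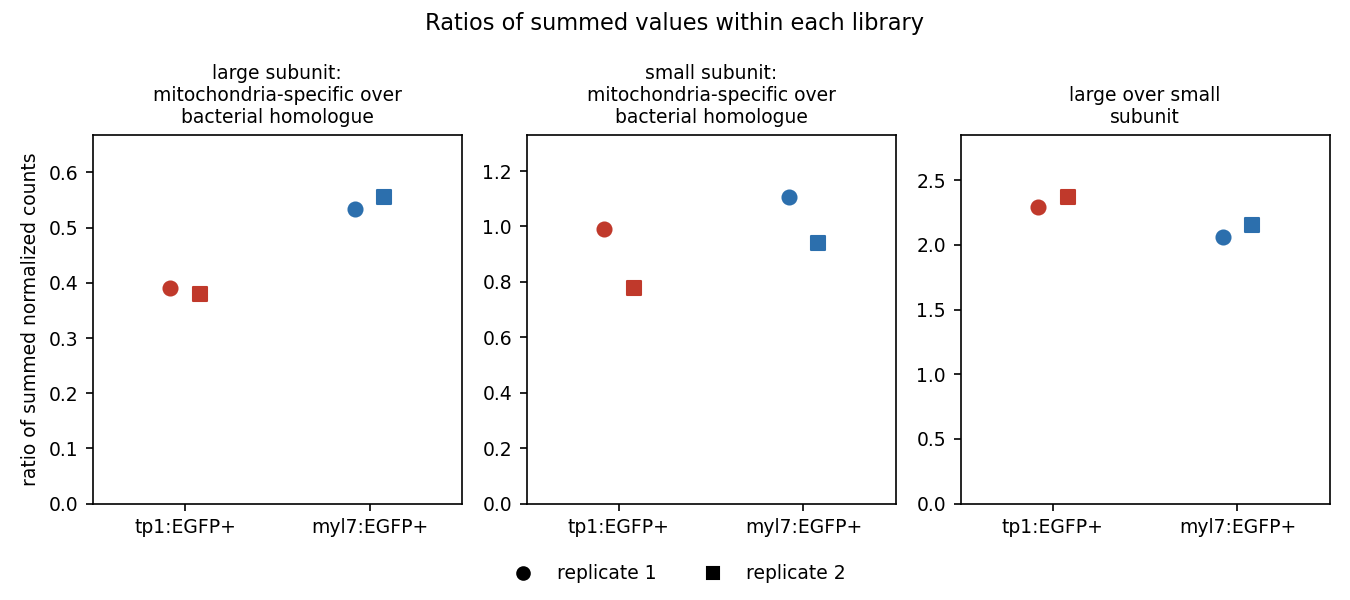
Ratios of summed normalized counts within each library (y axes, from 0), with tp1:EGFP+ libraries in red and myl7:EGFP+ libraries in blue. The left panel separates the groups (0.391 and 0.381 against 0.534 and 0.556), the middle panel overlaps, and the right panel shows 2.29 and 2.37 against 2.06 and 2.15.

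These genes varied between the replicate numbers as well as between the groups. For 51 of the 74 genes replicate 2 was above replicate 1 in both groups, against 2458 of 9921 tested genes. For 23 of the 74, in each group the log2 difference between its libraries was larger than the difference between the groups. This count and that of 2-fold differences below were not made over all tested genes. The differences between replicates in tp1:EGFP+ and in myl7:EGFP+ had a Pearson's r of 0.776 over the 74 genes and 0.442 over all tested genes, as a description. Genes with replicate 2 at least 2-fold above replicate 1 in both groups, on the log2(value + 1) scale, numbered 6, namely mrps18c, mrpl52, mrpl42, mrpl53, mrpl1 and mrpl21, of which all but mrps18c and mrpl1 are named after their values were seen. The largest difference between replicates in tp1:EGFP+ was that of mrpl52, with 34 and 149 in tp1:EGFP+ and 74 and 330 in myl7:EGFP+. Its log2 difference between groups was -1.10 within replicate 1 and -1.14 within replicate 2, yet its SE over the 4 libraries was 0.99. The replicate 2 libraries were the shallower ones, and the part of depth in these differences was not tested.

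**Figure D5:**
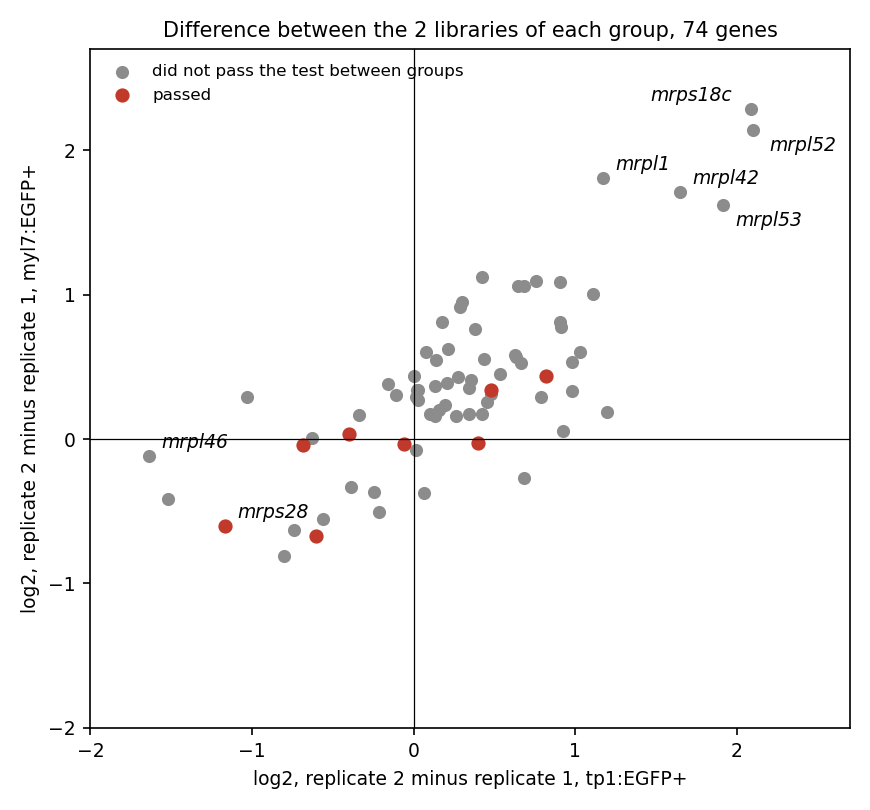
Log2 difference of replicate 2 minus replicate 1 on the log2(value + 1) scale in tp1:EGFP+ (x axis) and in myl7:EGFP+ (y axis) for the 74 genes, with red points for the 8 that passed the test between groups. Most points lie in the upper right, where replicate 2 was higher in both groups, and mrps18c and mrpl52 are farthest out.

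Related gene families showed larger differences between replicates. The 87 tested nuclear genes of oxidative phosphorylation had a median log2 replicate difference of 1.43 in size in tp1:EGFP+ and 1.89 in myl7:EGFP+. The 82 cytosolic ribosomal protein genes had 1.70 and 2.02, whereas the 74 mitochondrial ribosomal protein genes had 0.45 and 0.41. Over all tested genes the median size was 0.49 in each group. Replicate 2 was above replicate 1 in both groups for 81 of the 87 and 80 of the 82 genes, against 2458 of 9921 tested genes. The median SE of the group difference was 0.81, 0.89 and 0.35 in these families. By limma 0 genes passed in each of the first 2 families, and 1 in each had an unadjusted p under 0.05, as did 17 of the 74 (23.0%) and 46.1% of all tested genes. With their wider errors the first 2 families could show fewer differences, and no test was made between the families.

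Proteins that work with the mitochondrial ribosome were taken from lists of gene names. Of 17 tested translation factors and related genes, 1 rose and 3 fell (23.5% called, against 34.1% of all tested genes). With quantile normalization 2 were higher and 3 lower, and 35.9% of all tested genes passed. The initiation factor gene mtif2 fell to 2 and 6 in tp1:EGFP+, against 89 and 75 in myl7:EGFP+, and the ribosome recycling GTPase gene gfm2 to 1 and 3, against 80 and 62 (limma adjusted p = 0.00758 and 0.00481). In both genes the groups were far apart. By contrast the elongation GTPase gene guf1 rose, with 23 and 15 against 3 and 0, and tmem223 fell, with 8 and 6 against 34 and 22. The elongation factor gene tufm, named after its values were seen, had 350 and 373 in tp1:EGFP+ and 529 and 547 in myl7:EGFP+ and did not pass (limma adjusted p = 0.138).

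Among 22 tested genes for assembly of the mitochondrial ribosome and modification of its RNA, 2 rose and 2 fell (18.2% called, against 34.1% of all tested genes). The assembly GTPase gene mtg1 rose, with 134 and 170 in tp1:EGFP+ against 56 and 75 in myl7:EGFP+, as did the ribosome-binding factor gene rbfa, with 81 and 77 against 29 and 37. Lower in tp1:EGFP+ were eral1, which encodes a GTPase that binds the small subunit RNA (1 and 0 against 19 and 34), and the pseudouridine synthase gene rpusd4 (29 and 30 against 114 and 87). The 4 genes had limma adjusted p of 0.0360, 0.0464, 0.00645 and 0.0184. All groups were separate in these 4 genes. The list had 0 higher and 1 lower with scaling to a common total, and 0 and 2 with quantile normalization. Over all tested genes 26.5% and 35.9% passed in these settings.

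Of 14 tested mitochondrial aminoacyl-tRNA synthetases and related amidotransferase genes, which charge the transfer RNAs used by this ribosome, 0 rose and 4 fell (28.6% called, against 34.1% of all tested genes). The gene wars2, for the tryptophan enzyme, had 2 and 0 in tp1:EGFP+, against 32 and 22 in myl7:EGFP+, a log2 difference of -3.99 ± 0.66 (SE; limma adjusted p = 0.0119). The genes rars2 and aars2, for the arginine and alanine enzymes, differed by -2.66 and -2.50 on the log2 scale. In each of these genes both tp1:EGFP+ libraries lay below both myl7:EGFP+ libraries. With quantile normalization the list had 1 higher and 5 lower, and with a pseudocount of 10 it had 1 and 7. In these settings 35.9% and 37.5% of all tested genes passed.

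Of 5 ribosome subunits whose names do not begin with mrp, 0 passed by limma, and 3 had an unadjusted p under 0.05, a limit that 46.1% of all tested genes met. The small subunit GTPase gene dap3 had 344 and 465 in tp1:EGFP+ and 223 and 211 in myl7:EGFP+, with groups that did not overlap (log2 0.88 ± 0.27 SE, limma adjusted p = 0.0599). The gene aurkaip1 had 186 and 316 against 224 and 361, with overlapping groups. With scaling by a trimmed mean of M values 1 of the 5 passed as higher, and with a pseudocount of 10 there was 1 lower. The shares of all tested genes that passed were then 35.1% and 37.5%.

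Of 14 tested genes for transcription, replication and processing of mitochondrial nucleic acids, 2 rose and 3 fell, a share of 35.7% that is close to the 34.1% of all tested genes. The nuclease gene mgme1 had 0 and 0 in tp1:EGFP+ against 21 and 25 in myl7:EGFP+, and the RNA helicase gene supv3l1 had 5 and 0 against 70 and 59. The DNA helicase gene twnk had 44 and 33 in tp1:EGFP+ and 209 and 118 in myl7:EGFP+, and overlaps mrpl43 on the opposite strand over 478 bases. In the other direction, the polymerase subunit gene polg2 had 26 and 18 in tp1:EGFP+ against 0 and 0 in myl7:EGFP+, and the RNA polymerase gene polrmt, named after its values were seen, had 53 and 30 against 4 and 9. These low values rest on few reads in replicate 2.

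Among 13 tested regulators of mitochondrial biogenesis, 1 rose and 2 fell (23.1% called, against the same background). The nuclear receptor gene esrra fell to 171 and 158 in tp1:EGFP+, against 598 and 628 in myl7:EGFP+, with a log2 difference of -1.89 ± 0.23 (SE; limma adjusted p = 0.00513). The transcription factor gene myca had 7 and 0 against 52 and 44 and fell, whereas gabpb1 rose, with 64 and 54 against 14 and 9. The gene gabpb1 encodes a subunit of the GA-binding protein, known in mammals to act on promoters of nuclear genes for mitochondrial proteins. Of 23 tested rows for general mitochondrial proteins such as citrate synthase, porins and import proteins, 1 rose and 0 fell (4.35% called). With scaling to a common total 0 passed in either direction, against 26.5% of all tested genes. Of the 23 rows, the protease gene lonp1 had 249 and 247 in tp1:EGFP+ and 124 and 109 in myl7:EGFP+. Its libraries were close together within each group (limma adjusted p = 0.0229).

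Over these 7 lists 21 genes passed, and 20 of them lost the call without at least 1 library, 17 of these whichever library was left out. All 21 log2 differences kept their sign in these fits, as they must where the groups do not overlap. For mgme1 the log2 difference lay between -4.70 and -4.46 in these fits. This gene had no reads in either tp1:EGFP+ library, so its values there were tied and show no spread.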

How the data were processed

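The authors deposited 1 table for 4 libraries of sorted zebrafish cardiomyocytes, 2 per group. Its values are a score, namely normalized read counts per gene rounded to whole numbers by the authors, and not raw counts. The submitters' processing notes name DESeq2 1.26.0, Subread 1.6.5 with featureCounts, STAR 2.6.1d and Trimmomatic 0.39, and the builds GRCz11 and danRer11. They do not say which did what, or whether strand was used in counting. Per the labels' protocols, cDNA was pre-amplified with a SMART-Seq v4 kit and libraries were made with kits of 2 makers, without saying which served which library. Nothing says that libraries came from separate fish, so p-values measure the spread between these libraries, which may be technical.

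Values were tested as log2(value + 1) by limma 3.58.1 (R 4.3.3), with a trended prior, on the 9921 genes averaging 10 or more. Benjamini-Hochberg adjustment ran over all of them, at a threshold of 0.05, two-sided. Differences on this scale understate the change of low genes. The step behind 1 read was taken as the largest that gave every value up to 200 in a replicate 2 column. Summaries used Python 3.11.15, pandas 2.3.3, numpy 2.4.6 and scipy 1.17.1, and plots matplotlib 3.10.9.

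On simulated data with 9921 genes and the spread observed, with 3400 genes changed, 30.1% of 2-fold and 60.8% of 4-fold changes were recovered, with 92 false calls among 6521 unchanged genes. With only 200 changed, recovery was 0 of 50 for each of 2-, 4- and 8-fold changes, and 6 of 50 for 32-fold.

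The genes and lists were chosen with earlier results of these data known. Named members were those called, the 5 highest and 5 lowest differences, the 5 highest means, those at 0 in 1 group or with opposite differences of at least 1, the mrps18 copies and 8 further symbols, which gave 25 genes. Of other lists up to 4 called genes with the smallest p were named, or the 2 with the highest mean. Of these, 1 gene that this rule names is not reported here. The alternatives were pseudocounts of 0.5 and 10, testing every gene or those averaging 50 or more, scaling to a common total, by a trimmed mean of M values (trims of 30% and 5%) or by quantiles, no trend, the replicate number as a block, and each library left out.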

Additional observations from a re-analysis of the deposited data

How the results depend on the processing

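Of all tested genes 3382 passed, and 8 of the 74 mitochondrial ribosomal protein genes. With a mean of at least 50 the counts were 1343 (23.9% of all genes then tested) and 4 of 69 (5.8%). Of the 74, 4 passed without a filter, 4 without the trend, and with a common total 3 (mrpl40, mrpl9 and mrps23). Over all tested genes 25.7%, 31.7% and 26.5% passed in these settings, in that order. Leaving out each library gave 401 to 627 calls over all genes and 0 to 0 of the 74 by limma. Each of these fits leaves 1 library in a group, so these counts cannot set the 74 apart from other genes. The median log2 difference of the 74 lay between -0.39 and 0.08 in these fits. That of all tested genes lay between -0.05 and 0.02. The counts of the 74 lay between 8 and 11 with the other pseudocounts, trimmed mean of M values and quantile scaling. In these settings 32.5% to 37.5% of all tested genes passed. The trimmed mean moved the median log2 difference of all genes from 0.01 to 0.11, and that of the 74 from -0.16 to -0.07.

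With the replicate block 5721 of all genes (57.7%) and 32 of the 74 (11 higher and 21 lower) passed, the 8 among them. Of the named genes that did not pass in the main fit, 10 passed with the block. They were mrpl1, mrpl4, mrpl9, mrpl11, mrpl36, mrpl38, mrpl44, mrps5, mrps18a and mrps18c. Apart from mrpl9, described above, mrpl38 also passed with a pseudocount of 10 and with quantile normalization, and mrpl36 with trimmed mean of M values scaling. The block gave 4 higher and 6 lower translation factors, 5 and 7 assembly genes, 3 and 7 synthetases, 2 and 1 subunits with other names, 4 and 4 genes of mitochondrial nucleic acids, 2 and 7 regulators, and 4 and 2 general mitochondrial genes. The differences between replicates correlated at 0.442 between groups over all genes and 0.776 over the 74, but the labels do not say that a number marks a shared pool or day, and 2 numbers are too few to show pairing.

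None of the 25 named genes changed sign in the 9 settings with all libraries. The mean of at least 50 left 23 of them (without mrps28 and mrpl1). The filters, the fit without the trend and the replicate block leave the log2 difference as it was. A sign could therefore change only with the pseudocounts and the scalings. With 1 library left out, the log2 difference lay between -0.67 and 0.42 for mrpl18, -1.75 and 0.54 for mrps18c, -0.28 and 0.062 for mrps22, and -0.59 and 0.22 for mrps36. The sign reversed without tp1:EGFP+ replicate 1 for mrpl18 (0.26), mrps18c (0.44) and mrps22, and without myl7:EGFP+ replicate 2 for mrpl18, mrps18c and mrps36. The cause was not tested. Depth limits low genes: in replicate 2, 10 of the 74 in tp1:EGFP+ and 7 in myl7:EGFP+ rested on fewer than 20 reads. Most of the 8 called genes are among the 10, namely mrps28, mrpl39, mrpl24, mrpl40 and mrps2, with 1, 9, 15, 15 and 19 reads. The other called genes, mrps25, mrps23 and mrpl28, had 22, 33 and 158 reads in that library.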
